A study of Homo sapiens with 6 samples.

Results

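Of the 3511 genes in the deposited table, 70 carried names from the machinery of mitosis: kinesins, centromere and kinetochore proteins, condensin and related SMC ATPases, the kinases, cyclins and phosphatases of mitotic entry, and spindle checkpoint, chromosome and nuclear lamina proteins. They are the rows whose gene name matches a fixed pattern of family names, a pattern drawn up with earlier results of these data known. RNA was sequenced from wild-type RKO cells, an established human colorectal carcinoma line, after 48 h in 1 of 2 media. The control libraries (3) came from cells in 10% fetal bovine serum with 4.5 g/L glucose and the fasting libraries (3) from cells in 1% serum with 1 g/L glucose, so serum and glucose were lowered together and their parts cannot be told apart. Groups follow each sample's own treatment label; the protocol text, which is the same for all 6 samples, gives the high-glucose medium under growth and the low-serum medium under treatment. Drug treatments named in the study's design were not analysed here. Whether the 3 samples of a medium were grown as separate cultures is not in the labels. The p-values therefore rest on the differences among these samples alone, and those may be technical.

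Dividing cells condense their chromosomes, assemble a bipolar microtubule spindle, attach each chromosome to it through a kinetochore built on the centromere, and hold back anaphase until every kinetochore is attached. Condensin, a ring complex of SMC ATPases, compacts the chromosomes, kinesin motors and microtubule-binding proteins shape the spindle, and the kinases CDK1, PLK1 and the Auroras time each step. Many of these genes are transcribed in G2 and M phase, through promoters that carry a cell cycle homology region (CHR) and CCAAT boxes, so their RNA is commonly read as a marker of proliferating cells.

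The table listed only genes that the authors had called between these same 2 media, 11.8% of the 29845 they tested, so being listed already means differing between the groups, and 46 of the 116 genes in the role groups used below were not listed under their names and, apart from KIF23, have no value here. One library stood apart. In fasting replicate 3 the longer transcripts were lower and the shorter ones higher than in the other fasting libraries, and values without it are given where it matters. Orders of genes and groups by size are those with all 6 libraries as deposited, and some change without that library or with the trend in length removed. Reads in listed genes numbered 4017618 to 5602177 in the control libraries and 4187326 to 5071791 in the fasting libraries. The median gene of the 70 had 1156 reads in a control library and 312.5 in a fasting library, and 57 of the 70 had at least 100 reads in every library. The fewest were 11 reads, for KIF21B in fasting replicate 3. The 70 genes lie on 21 chromosomes (GENCODE 29). Exons of 22 of them overlap a gene on the opposite strand, and although the library kit keeps the strand, the sources used here do not say whether counting used it, so reads from such partners may be included. A list of genes induced by handling and stress moved with the medium as well. Of its 10 genes 8 were listed, all 8 rose, and their summed normalized count was 9013 to 9816 in the control and 64859 to 79081.5 in the fasting libraries. Their part in the results below was not tested. Of 7 epithelial markers only KRT18 was listed (it rose, 1.72 on the log2 scale), and none of 15 fibroblast, leukocyte and endothelial markers was.

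All 70 genes were lower in fasting medium. By limma on log2(normalized count + 1), with Benjamini-Hochberg adjustment over all genes the authors tested, 68 of 70 fell at an adjusted p under 0.05 (97.1%) and 0 rose. Of all listed genes 94.3% passed the same test in either direction and 44.6% fell, and since the table was selected on this contrast, the counts of the 70 genes are read below by direction and size. Over all listed genes 1567 fell and 1745 rose, or 1708 and 862 when libraries were scaled to their total reads in listed genes, and under that scaling all 70 genes passed as lower. Their median log2 fold change was -1.46, a level 2.76 times lower, with quartiles of -1.70 and -1.11, whereas the median over all listed genes was 0.53. Among the 1747 listed genes that were lower the median was -0.92, and 59 of the 70 lay below it. A fall of at least 2-fold was found for 57 of the 70 (81.4%), against 19.8% of all listed genes, and 25 fell by at least 3-fold and 7 by at least 4-fold. The 3 fasting values lay below the 3 control values for all 70, as groups did not overlap for 100% of listed genes. In bulk RNA, fewer cells in mitosis and less mitotic RNA in each cell cannot be told apart.

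The medians of the fasting libraries over the 70 genes were close to each other, although fasting replicate 3 was below both others for 38 genes and above both for 28. Measured against the control mean, the median log2 change was -1.42 in fasting replicate 1, -1.31 in replicate 2 and -1.47 in replicate 3 (SD 0.0789, n = 3). The 70 genes took 2.23% of the reads in listed genes in each of the 3 control libraries, and 0.650%, 0.659% and 0.509% in fasting replicates 1, 2 and 3. Per gene the spread was wider under fasting, with a median SD of 3.53% of the mean in the control group and 15.7% in the fasting group. The plot of every gene in every library shows the control points nearly on top of each other and the fasting points spread out to their left.

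**Figure D1:**
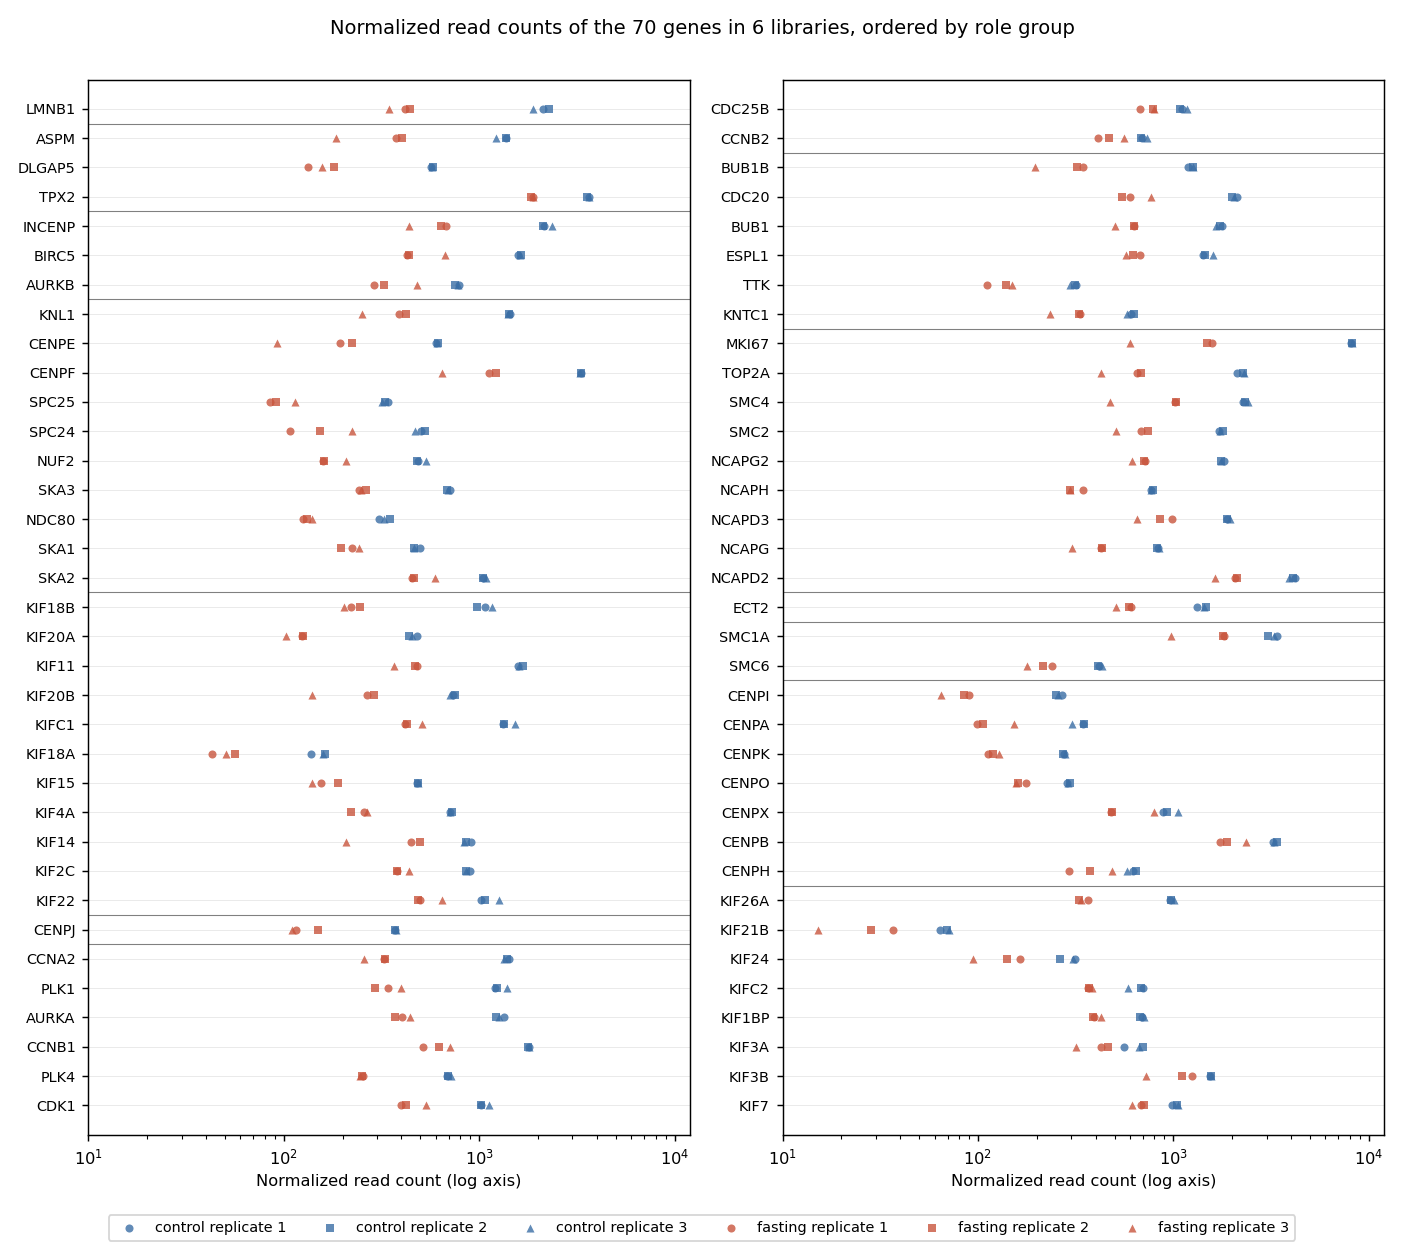
Normalized read count (log axis) of each of the 70 genes in the 3 control libraries (blue) and the 3 fasting libraries (red), with marker shape giving the replicate and lines parting the role groups. Every fasting point lies left of the control points of its gene, and the triangle of fasting replicate 3 stands apart to the left for long genes such as MKI67 (601 against 1582 and 1491) and to the right for short ones such as CENPX (796 against 479.8 and 486).

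The upstream sequences of these genes can be read beside their values. In the RefSeq promoter table (GRCh38.p14), 60 of the 70 genes had 74 windows of 250 bases before a transcription start. The letters TTTGAA or TTCGAA, the core of the CHR, were found on either strand in 26 of the 74 windows (35.1%), against 14.3% of all 35116 windows in the table, 11.0% of the 1890 windows of other listed genes that were lower and 10.6% of the 1845 windows of listed genes that were higher. CCAAT on either strand stood in 43 windows (58.1%), against 32.0%, 35.6% and 36.5% in the same order, and both motifs together in 20 windows (27.0%) against 5.05%, 5.03% and 3.96%. An E2F core (TTTGGCGC, TTTCGCGC or TTTCCCGC) stood in 6 windows (8.11%) against 2.32%, 5.45% and 2.82%. Short motifs such as these also occur by base composition alone, and a match is only a run of letters. The 9 windows shown were picked from the 19 genes that hold both motifs, to range from the largest fall (MKI67) to the 2 smallest (CDC25B and CCNB2); the other 41 genes with a window lack at least 1 of the motifs and are not shown. Each runs from 10 bases before its first motif (or from the window's first base) to the last base before the start, 5′ to 3′ on the gene's strand, with CHR and CCAAT letters, and their reverse complements TTCAAA and ATTGG, in capitals.
MKI67: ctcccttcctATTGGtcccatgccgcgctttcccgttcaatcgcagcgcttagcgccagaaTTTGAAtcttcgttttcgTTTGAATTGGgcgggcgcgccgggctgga
TOP2A: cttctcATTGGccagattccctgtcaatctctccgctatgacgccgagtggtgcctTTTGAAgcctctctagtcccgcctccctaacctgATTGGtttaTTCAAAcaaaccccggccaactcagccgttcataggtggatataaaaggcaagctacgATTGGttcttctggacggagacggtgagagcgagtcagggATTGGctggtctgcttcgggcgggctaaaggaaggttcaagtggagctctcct
KIF11: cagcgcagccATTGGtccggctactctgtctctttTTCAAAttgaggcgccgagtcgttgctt
PLK1: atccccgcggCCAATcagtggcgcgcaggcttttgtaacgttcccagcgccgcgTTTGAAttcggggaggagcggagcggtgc
CDC20: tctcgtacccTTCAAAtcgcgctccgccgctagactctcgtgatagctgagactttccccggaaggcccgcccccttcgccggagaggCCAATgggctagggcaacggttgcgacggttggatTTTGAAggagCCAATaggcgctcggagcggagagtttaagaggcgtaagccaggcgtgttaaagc
KIF18A: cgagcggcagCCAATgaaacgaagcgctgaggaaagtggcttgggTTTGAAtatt
ESPL1: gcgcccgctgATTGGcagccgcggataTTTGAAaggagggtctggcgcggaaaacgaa
CDC25B: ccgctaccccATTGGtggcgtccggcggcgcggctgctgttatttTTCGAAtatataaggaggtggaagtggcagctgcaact
CCNB2: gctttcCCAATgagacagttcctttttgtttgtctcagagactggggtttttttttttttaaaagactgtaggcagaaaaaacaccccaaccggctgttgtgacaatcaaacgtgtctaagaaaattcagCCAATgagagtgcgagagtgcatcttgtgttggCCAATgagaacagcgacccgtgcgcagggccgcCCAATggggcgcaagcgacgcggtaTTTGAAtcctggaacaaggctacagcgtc

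These windows lie at chr10:128126424-128126531 (minus strand) (MKI67), chr17:40417897-40418146 (minus strand) (TOP2A), chr10:92593067-92593129 (plus strand) (KIF11), chr16:23678806-23678888 (plus strand) (PLK1), chr1:43358793-43358980 (plus strand) (CDC20), chr11:28108157-28108211 (minus strand) (KIF18A), chr12:53268241-53268298 (plus strand) (ESPL1), chr20:3796227-3796309 (plus strand) (CDC25B) and chr15:59104896-59105145 (plus strand) (CCNB2). The CHR letters begin 29 bases before the start in PLK1 and in CCNB2, 28 in KIF11, 31 in ESPL1, 38 in CDC25B and 10 in KIF18A. Each of the other 3 windows has 2 copies, at 47 and 29 bases in MKI67, at 178 and 65 in CDC20 and at 194 and 151 in TOP2A, and the MKI67 copy at 29 bases shares letters with a CCAAT box. PLK1 and CCNB2 thus carry the CHR letters at the same distance, yet PLK1 had a log2 fold change of -1.89 and CCNB2 of -0.55. Among the 60 genes with a window, the 23 with CHR letters had a median log2 fold change of -1.59 and the 37 without had -1.31. CCNA2, LMNB1 and KIF18B, 3 of the 4 largest falls, had CCAAT and no CHR letters in these windows. Whether the motifs had a part in the falls or their size was not tested.

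Among the drivers of mitotic entry, 8 of 10 genes were listed and all 8 fell (median log2 fold change -1.52). The 3 cyclins of the group fell by very different amounts. CCNA2, the A-type cyclin that works through S phase and G2, had normalized counts of 1421, 1388 and 1347 in the control libraries and 325, 328 and 259 in the fasting libraries, a fold change of log2 -2.19, SE 0.113, adjusted p 3.13e-05. CCNB1, the main mitotic partner of CDK1, had 1798, 1787 and 1808 in control and 514, 621 and 707 in fasting medium (log2 -1.56, SE 0.121, adjusted p 0.000161). CCNB2, the second B-type cyclin, had 688, 681 and 729 in control and 414, 471 and 558 in fasting medium (log2 -0.55, SE 0.122, adjusted p 0.0212), the smallest change of the 70 genes. Without fasting replicate 3 its log2 fold change was -0.66, and KIF3B (-0.40), KIF3A (-0.52), KIF7 (-0.56) and CDC25B (-0.62) changed less. All fasting values were below all control values for each cyclin, as groups did not overlap for any listed gene. Fasting replicate 3 was the lowest library for CCNA2 but the highest fasting library for both B-type cyclins. The call for CCNB2 was near the threshold. Leaving out any library except fasting replicate 3 raised its adjusted p to between 0.0641 and 0.115. Calls over all listed genes fell too, from 1567 lower with all 6 libraries to between 1160 and 1176 without 1 control library. CCNB2 also missed the threshold when the libraries were scaled by relative log expression (RLE), as median-of-ratios methods do (adjusted p 0.179). RLE factors were computed here from the listed genes alone, all called by the authors as differing. Under that scaling 1174 listed genes were called lower.

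CDK1, the kinase these cyclins activate, had 1018, 1024 and 1117 in control and 397, 423 and 538 in fasting medium (log2 -1.23, SE 0.127, adjusted p 0.000581). CDC25B, a phosphatase that activates CDK1, changed least after CCNB2, from 1109, 1078 and 1174 to 677, 783 and 800.3 (log2 -0.57, SE 0.096, adjusted p 0.00512), and it too missed the threshold under RLE scaling (adjusted p 0.0587). PLK1, the Polo-like kinase of spindle assembly and mitotic exit, went from 1209, 1228 and 1382 to 343, 292 and 400.1 (log2 -1.89, SE 0.13, adjusted p 9.67e-05). All 3 fell in each fasting library, as groups did not overlap for any listed gene, with fasting replicate 3 the highest of the fasting values each time. PLK4, which drives centriole duplication, was the most even of the group, with 684, 693 and 721 in control and 255, 251 and 246 in fasting medium (log2 -1.48, SE 0.0861, adjusted p 5.02e-05). AURKA, the Aurora kinase of the spindle poles, went from 1342, 1216 and 1268 to 401, 370.3 and 443 (log2 -1.66, SE 0.0982, adjusted p 5.39e-05). CCNA1 and CDC25C were not listed.

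The spindle-associated proteins had 3 of 5 genes listed, and all 3 fell. TPX2, which activates AURKA and nucleates spindle microtubules, was among the most abundant of the 70 genes and fell least in this group: its values were 3642, 3576 and 3666 in control and 1876, 1839 and 1885 in fasting medium (log2 -0.96, SE 0.0711, adjusted p 0.000135). For their level, its fasting values lay closer together than those of ASPM or DLGAP5. ASPM, a spindle pole protein needed for the divisions of neural progenitors, went from 1368, 1375 and 1225 to 377, 405 and 184 (log2 -2.12, SE 0.274, adjusted p 0.00158), and without fasting replicate 3 its log2 fold change was -1.76. DLGAP5, a spindle protein that stabilizes kinetochore fibres, went from 564, 582 and 576 to 133, 179.9 and 157 (log2 -1.88, SE 0.127, adjusted p 9.3e-05). NUSAP1 and HMMR were not listed.

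All 3 listed members of the chromosomal passenger complex fell (median -1.69). This complex corrects faulty attachments at the centromere and later directs cytokinesis. INCENP, its scaffold, had 2149, 2114 and 2356 in control and 674, 638 and 440.0 in fasting medium (log2 -1.94, SE 0.161, adjusted p 0.000212). BIRC5 (survivin), which recruits the complex to chromatin, went from 1589.8, 1633 and 1625 to 428, 436 and 667 (log2 -1.69, SE 0.168, adjusted p 0.00049), and AURKB, its kinase, from 784, 752 and 783 to 289, 326 and 479 (log2 -1.12, SE 0.177, adjusted p 0.00401). Fasting replicate 3 was the lowest fasting library for INCENP and the highest for BIRC5 and AURKB. Without that library the log2 fold changes were -1.75 for INCENP, -1.90 for BIRC5 and -1.33 for AURKB. CDCA8 (borealin), the fourth subunit, falls outside the name pattern and had a log2 fold change of -1.18 (SE 0.0911, limma, adjusted p 0.000157).

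Mitotic kinesins, the motors that slide, depolymerize or crosslink spindle microtubules, had 11 of 14 genes listed under their names, and all 11 fell (median -1.59, range -2.26 to -1.04). KIF18B, which depolymerizes astral microtubules, fell most, from 1068, 979.7 and 1169 to 219.6, 246 and 204 (log2 -2.26, SE 0.113, adjusted p 2.75e-05). KIF20A, which carries the passenger complex to the central spindle, went from 483, 438 and 454 to 124, 126 and 103 (log2 -1.96, SE 0.119, adjusted p 5.8e-05). KIF11 (Eg5), the motor that pushes the spindle poles apart, went from 1573, 1682 and 1608 to 479.8, 471 and 366 (log2 -1.89, SE 0.119, adjusted p 6.85e-05). No fasting value of these 3 motors came near a control value, and fasting replicate 3 was the lowest library for each. KIFC1, a minus-end motor that clusters centrosomes, went from 1327, 1343 and 1519.8 to 415, 428 and 512 (log2 -1.63, SE 0.111, adjusted p 9.39e-05). KIF2C (MCAK), a depolymerase at the centromere, went from 894, 859 and 853 to 379.6, 379 and 440.0 (log2 -1.12, SE 0.0955, adjusted p 0.000236). KIF22, a chromosome arm motor, fell least of the 11, from 1026, 1071 and 1257 to 499, 488 and 645 (log2 -1.04, SE 0.136, adjusted p 0.00162). For these 3 shorter genes fasting replicate 3 was the highest fasting library.

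The other 5 mitotic kinesins had log2 fold changes from -1.73 (KIF20B) to -1.26 (KIF14), with KIF15 at -1.59, KIF18A at -1.59 and KIF4A at -1.52. KIF4A, a chromosome motor that works with condensin, has a near-identical copy, KIF4B, so its reads may include some of that copy. KIF14, a motor of the central spindle, had 910.3, 855 and 833 in control and 449, 497 and 209 in fasting medium (log2 -1.26, SE 0.295, adjusted p 0.0278). Fasting replicate 3 was far below the other fasting libraries, and without it its log2 fold change was -0.87. The call of KIF14 was lost on leaving out any 1 of the control libraries (adjusted p 0.0913 to 0.112), under RLE scaling (0.0785) and under moderation without a mean-variance trend (0.0602). KIF23, the centralspindlin motor of cytokinesis, was missed by its name: its Ensembl identifier, ENSG00000137807, stood in the table under the name AC027237.1. That row had 869.9, 822 and 872 in control and 317, 308 and 289 in fasting medium, a log2 fold change of -1.49 (SE 0.0882, limma, adjusted p 5.39e-05). It stayed outside the 70 genes and their counts. ECT2, the exchange factor that centralspindlin recruits for cytokinesis, went from 1317, 1469.9 and 1439.8 to 611, 596 and 510.1 (log2 -1.30, SE 0.101, adjusted p 0.000163), and PRC1 and ANLN were not listed.

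Every one of the 10 outer kinetochore genes was listed, and all 10 fell, with a median of -1.60 and a range of -2.04 to -1.09. This was the only role group of more than 3 genes listed in full. KNL1, the scaffold that docks checkpoint kinases, had 1430.0, 1429 and 1397 in control and 387, 422 and 250.3 in fasting medium (log2 -2.04, SE 0.184, adjusted p 0.000308). CENPE, a kinesin that brings chromosomes to the spindle equator, went from 599, 615 and 608 to 194, 224 and 92.1 (log2 -1.93, SE 0.297, adjusted p 0.00354). CENPF, a large coiled-coil protein of the kinetochore, went from 3325, 3336 and 3289 to 1123, 1224 and 646 (log2 -1.79, SE 0.219, adjusted p 0.00123). Fasting replicate 3 was far below the other fasting libraries for these 3 very long transcripts, and without it the log2 fold changes were -1.81, -1.54 and -1.50.

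The 4 subunits of the NDC80 complex, the main microtubule coupler, all fell. NDC80 had 307, 348 and 328 in control and 126, 132 and 140.3 in fasting medium (log2 -1.30, SE 0.109, adjusted p 0.000222), and its direct partner NUF2 went from 486, 482 and 532 to 159, 161 and 208 (log2 -1.51, SE 0.131, adjusted p 0.000258). SPC24 and SPC25 form the other end of the rod. SPC24 went from 507, 531 and 469 to 108, 154 and 224 (log2 -1.69, SE 0.239, adjusted p 0.00235), and SPC25 from 342, 329.6 and 318 to 85.1, 91 and 114 (log2 -1.77, SE 0.137, adjusted p 0.000163). Fasting replicate 3 was the highest fasting library for all 4 subunits, and no fasting value overlapped a control value, as for every listed gene. The genes of the SKA complex, which tracks depolymerizing microtubules, fell as well: SKA1 had a log2 fold change of -1.11, SKA3 of -1.47, and SKA2, with the smallest change of the 10 genes, went from 1051, 1051 and 1088 to 452, 467 and 595 (log2 -1.09, SE 0.119, adjusted p 0.000741).

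Spindle checkpoint and anaphase genes had 6 of 7 members listed, and all 6 fell (median -1.41). BUB1B (BUBR1), part of the inhibitor of the anaphase-promoting complex, had 1190.4, 1261 and 1256 in control and 347, 320.1 and 195 in fasting medium (log2 -2.14, SE 0.203, adjusted p 0.000385). BUB1, the kinase that marks centromeric chromatin, went from 1772, 1743 and 1648 to 631, 626 and 505 (log2 -1.56, SE 0.108, adjusted p 0.000101). TTK (MPS1), the kinase that starts the checkpoint signal, went from 317, 314 and 294 to 112, 139 and 149.9 (log2 -1.21, SE 0.135, adjusted p 0.000809). The groups did not overlap for any of the 3, as for every listed gene. The exons of BUB1B overlap those of the readthrough gene BUB1B-PAK6 on the same strand, whose reads cannot be told from its own. CDC20, the activator that the checkpoint holds in check, went from 2109, 1998 and 2044 to 603, 546 and 767 (log2 -1.70, SE 0.129, adjusted p 0.000144). ESPL1 (separase), the protease that cuts cohesin at anaphase, went from 1415, 1451 and 1601 to 673, 618 and 572 (log2 -1.26, SE 0.0968, adjusted p 0.000154). KNTC1 (ROD), which brings dynein to kinetochores, fell least of the group, from 604, 632 and 580.0 to 331, 328 and 234 (log2 -1.04, SE 0.147, adjusted p 0.00241). BUB3 was not listed.

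Chromosome structure genes, the condensins with TOP2A and MKI67, had 9 of 10 members listed, and all 9 fell by at least 2-fold (median -1.38). MKI67, which encodes the Ki-67 protein that coats mitotic chromosomes and is the routine stain for proliferation, changed most of all 70 genes. Its counts were 8155, 8244 and 8166 in control and 1582, 1491 and 601 in fasting medium (log2 -2.86, SE 0.332, adjusted p 0.000944), or 7.28-fold lower. Fasting replicate 3 lay far below the other fasting libraries, and without it the log2 fold change was -2.41, still the largest of the 70. MKI67 also has the longest transcript of the 70 (12678 bases), and with the trend in length removed from every library its log2 fold change was -2.09, only the sixth largest, behind LMNB1 (-2.54), CCNA2 (-2.38), SPC25 (-2.17), PLK1 (-2.16) and KIF18B (-2.12). TOP2A, the topoisomerase that untangles sister chromatids, went from 2106, 2277 and 2299.6 to 649.9, 682 and 428 (log2 -1.95, SE 0.172, adjusted p 0.000278).

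The SMC ATPases SMC2 and SMC4 serve both condensin complexes. SMC2 had 1710.1, 1793 and 1743 in control and 680.4, 738 and 512 in fasting medium (log2 -1.46, SE 0.137, adjusted p 0.000382), and SMC4 went from 2280.2, 2319.6 and 2406 to 1018, 1033 and 474 (log2 -1.56, SE 0.276, adjusted p 0.00701). For SMC4 fasting replicate 3 lay far below the other fasting libraries, and without it the log2 fold change was -1.19. Of the subunits of condensin I, NCAPH, the kleisin that closes the ring, went from 769, 787 and 772 to 347, 297 and 294 (log2 -1.31, SE 0.0985, adjusted p 0.000138), NCAPG from 839, 828 and 849 to 425, 429.9 and 301 (log2 -1.14, SE 0.145, adjusted p 0.00146) and NCAPD2 from 4179, 4089 and 3913 to 2062, 2127 and 1638 (log2 -1.07, SE 0.112, adjusted p 0.000613). The condensin II subunits NCAPG2 and NCAPD3 had log2 fold changes of -1.38 and -1.21, inside the range of the condensin I subunits for NCAPD3 and slightly beyond it for NCAPG2, and NCAPH2 was not listed. Fasting replicate 3 was the lowest library for all 9 genes of the group.

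Cohesin and SMC5/6 ATPases, which hold sister chromatids together and repair DNA, were listed for 2 of 5 genes. SMC1A, a cohesin ATPase, went from 3391, 3065 and 3265 to 1811, 1792 and 975 (log2 -1.14, SE 0.226, adjusted p 0.012), and SMC6 from 414, 411 and 431 to 239.9, 214 and 177, or 50.3% of its control mean (SE 0.129 on the log2 scale, adjusted p 0.00154). The SMC1A call was lost without control replicate 1 (adjusted p 0.0593) or control replicate 3 (0.0625). For SMC1A too fasting replicate 3 was far below the other fasting libraries, and without it the log2 fold change was -0.85. LMNB1, the B-type lamin whose network is taken apart in mitosis, was the second most changed gene, with 2116, 2266 and 1895 in control and 416, 445 and 347 in fasting medium (log2 -2.38, SE 0.12, adjusted p 2.98e-05). CENPJ, a centriole assembly protein despite its CENP name, went from 371, 370.1 and 374 to 116, 149.6 and 110.0 (log2 -1.58, SE 0.138, adjusted p 0.000262).

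The group labelled inner centromere proteins holds 18 genes of the centromere and inner kinetochore, the base on which the outer kinetochore is built. Of these 7 were listed, all 7 were lower and 6 passed the threshold, with a median of -0.81. These are short transcripts (median 1734 bases), and with the trend in length removed the median was -1.45. CENPI, a constitutive centromere protein, fell most, from 269, 250.1 and 257 to 90.1, 84.7 and 64.6 (log2 -1.70, SE 0.15, adjusted p 0.000279). CENPA, the histone H3 variant that marks the centromere, went from 344, 348 and 303 to 99, 107 and 153 (log2 -1.49, SE 0.175, adjusted p 0.00101), in exons that partly overlap SLC35F6 on the same strand. CENPK (log2 -1.20), CENPO (-0.81) and CENPB (-0.74), which binds alpha-satellite DNA, fell as well. In these 3 genes, as in every listed gene, the groups did not overlap. CENPH, a partner of CENPI and CENPK, went from 619, 647 and 576 to 293, 373 and 487 (log2 -0.70, SE 0.176, adjusted p 0.0386), and its call was lost when any library other than fasting replicate 3 was left out (adjusted p 0.0796 to 0.159), under RLE scaling (0.159) and under moderation without a mean-variance trend (0.0740). CENPX, a histone-fold protein with a second role in the Fanconi pathway, did not pass: it had 884, 930.0 and 1062 in control and 479.8, 486 and 796 in fasting medium (log2 -0.74, SE 0.197, adjusted p 0.0523). Fasting replicate 3 came close to the lowest control value of CENPX, and without that library its log2 fold change was -0.98 (adjusted p 2.52e-07). Nearly every listed gene passed without that library (1747 lower and 1762 higher). The CCAN genes CENPC, CENPL, CENPM, CENPN, CENPP, CENPQ, CENPT and CENPU were among the 11 not listed.

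The 8 listed genes of 29 in the last group, kinesins of transport and signalling, had a median of -0.79. All 8 were lower and 7 passed the threshold. KIF26A, a kinesin-like protein without motor activity, fell most, from 961, 975 and 1009 to 366, 329 and 337 (log2 -1.51, SE 0.087, adjusted p 4.9e-05). KIF7, which regulates Hedgehog signalling at the cilium tip, changed least among the genes that passed, from 984, 1046 and 1052 to 683, 706 and 613 (log2 -0.62, SE 0.0901, adjusted p 0.00261). KIF3A and KIF3B encode the 2 motor subunits of kinesin-2, the motor of ciliary transport. KIF3A went from 562, 700.5 and 668 to 428, 465 and 318 (log2 -0.68, SE 0.16, adjusted p 0.0284), and KIF3B, with 1541, 1549 and 1564 in control and 1247, 1104 and 726 in fasting medium, did not pass (log2 -0.63, SE 0.184, adjusted p 0.0817). Both results lay near the threshold. KIF3A was lost without control replicate 2 (adjusted p 0.136), control replicate 3 (0.137) or fasting replicate 1 (0.0624). KIF3B passed without fasting replicate 1 (0.0332) or fasting replicate 3 (0.000117). In those fits 1469 and 1747 listed genes were called lower, against 1567 with all 6 libraries. KIF3A was also lost under RLE scaling (0.184), under moderation without a mean-variance trend (0.0562) and with the trend in length removed, where its log2 fold change was -0.27 (0.235). KIF21B, KIF24 and KIFC2 had log2 fold changes of -1.41, -1.17 and -0.81, and the KIF21B call was lost without any 1 control library (0.0636 to 0.0898). KIF1BP (now KIFBP), at -0.78, binds kinesins and is not one. The file's InterPro annotation gave a kinesin motor domain to 21 listed genes, 19 of them among the 70, and all 21 were lower. Of the 103 listed genes annotated with a protein kinase domain, 7 were among the 70 and 68 of the 103 were lower. Over all 3511 listed genes 1747 were lower.

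**Figure D2:**
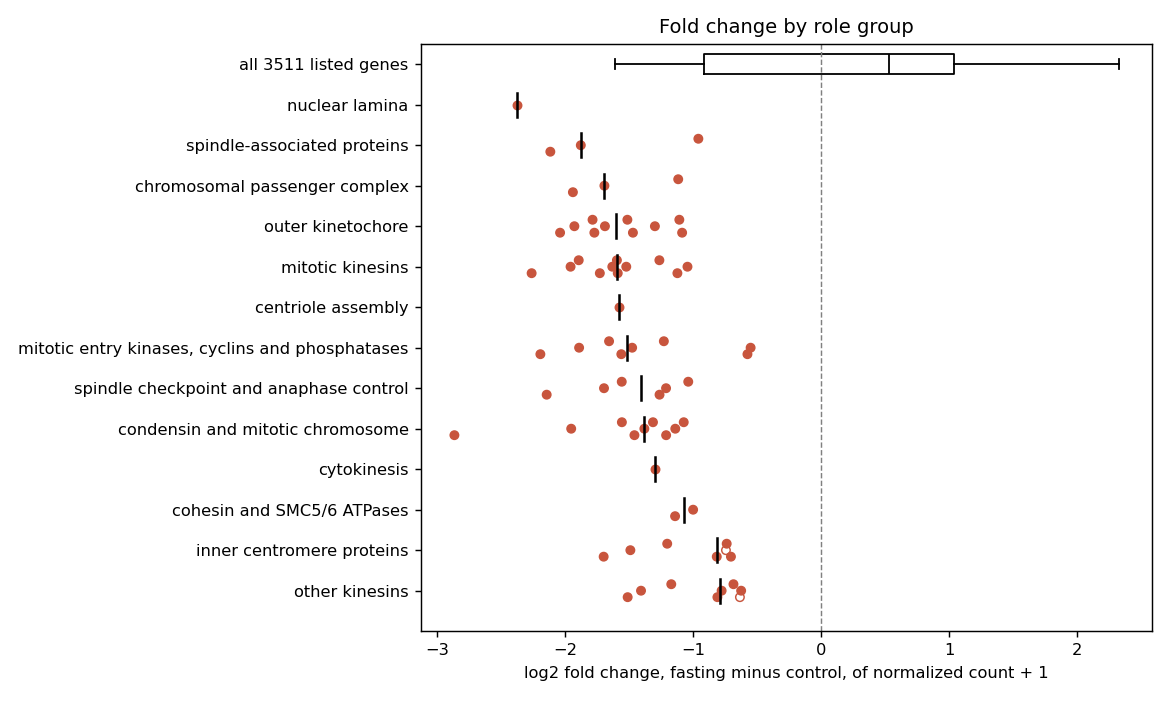
Log2 fold change of each of the 70 genes by role group, with black bars at the group medians, filled points for an adjusted p under 0.05 (limma) and a box for all 3511 listed genes (quartiles, with whiskers at the 5th and 95th percentiles). All points lie left of 0, with inner centromere proteins at a median of -0.81 (-1.45 with the trend in length removed) and other kinesins at -0.79 (-0.76), and the 2 open points are CENPX and KIF3B.

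Per kilobase of the longest transcript, the 70 genes differed widely in level under control medium. CENPX (1191 normalized counts per kb), CENPB (1159), CDC20 (1154) and TPX2 (1006) were highest, and KIF21B (6.9), KIF18A (42.9) and KIF24 (47.9) lowest. Under fasting medium CENPX (729.8), CENPB (701) and TPX2 (518) were again the highest of these, whereas CDC20 dropped to 359 and MKI67 from 646 to 96.6. Across the 70 genes Spearman's rho between log2 fold change and mean control count was -0.168, given as a description over genes that share the same 6 libraries.

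Partner genes were also compared within each library. Ratios within a library do not depend on how libraries are scaled, and they were formed for 21 partner pairs that were chosen after the values had been seen. For 11 pairs the 3 fasting ratios lay outside the control ratios and for 10 they overlapped. How often ratios of other listed genes lie apart was not computed, and each listed gene alone already did (100%). With 3 libraries against 3 an exact two-sided permutation test cannot go below p = 0.1, or 0.191 after Benjamini-Hochberg adjustment over the 21 pairs, so no pair passed a threshold. CCNB1 over CCNB2 stood at 1.36 ± 0.0449 (log2, SD, n = 3) in control and 0.35 ± 0.0447 in fasting medium (exact p = 0.1), a log2 difference of -1.01, and -1.01 without fasting replicate 3. CCNA2 over CCNB2 went from 0.99 ± 0.087 to -0.66 ± 0.399 a log2 difference of -1.64, or -1.42 without that library. AURKA over its activator TPX2 went from -1.51 ± 0.0611 to -2.21 ± 0.112. These 3 ratios were lower in every fasting library than in any control library.

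Other ratios that separated the groups were KNL1 over NDC80 (-0.74, and -0.47 without fasting replicate 3), INCENP over AURKB (-0.82 and -0.42), BUB1B over BUB1 (-0.59 and -0.44), PLK1 over PLK4 (-0.41 and -0.54) and SKA3 over SKA1 (-0.36 and -0.29). SKA3 and SKA1 transcripts are nearly equal in length (2919 and 2905 bases), as are those of BUB1B and BUB1 (3725 and 3576). Fasting replicate 3 differed from the mean of the other fasting libraries by -0.02 and 0.21 (log2) for SKA3 and SKA1. For BUB1B and BUB1 it differed by -0.77 and -0.32. Whether length had a part in these ratios was not tested. Ratios that overlapped included NDC80 over NUF2 (difference 0.22), SPC25 over SPC24 (-0.08), CENPF over CENPE (0.14), SMC2 over SMC4 (0.10), NCAPD2 over NCAPG (0.07) and KIF3A over KIF3B (-0.05). The pairs formed within the NDC80 complex and within condensin all overlapped, and with 3 samples a group smaller shifts were not detectable. For NDC80/NUF2, SMC2/SMC4, NCAPH/NCAPG and NCAPD3/NCAPG2 the overlap came from fasting replicate 3 alone. Without that library their log2 differences were 0.30, -0.12, -0.30 and 0.26. Those of SPC25/SPC24 and NCAPD2/NCAPG were 0.06 and 0.02.

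**Figure D3:**
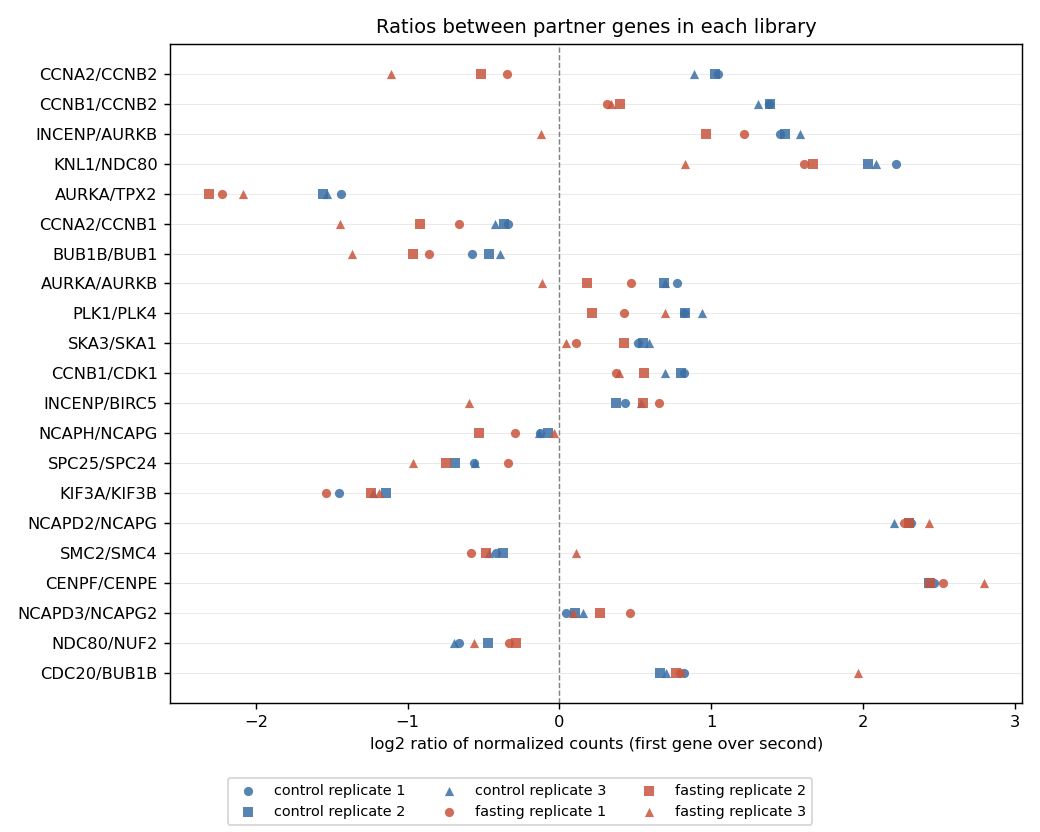
Log2 ratio of normalized counts between 21 pairs of partner genes in each library, with control in blue, fasting in red and marker shape for the replicate, ordered by the difference between media. CCNA2/CCNB2 and CCNB1/CCNB2 at the top are lower in all 3 fasting libraries, whereas NCAPD2/NCAPG overlaps. SMC2/SMC4 overlaps through fasting replicate 3 alone. The red triangle of that library stands apart for pairs of unequal length such as INCENP/AURKB.

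Fasting replicate 3 was below both other fasting libraries for 38 of the 70 genes, whose median transcript length was 5243 bases, above both for 28 genes (2409 bases) and between them for 4. Across the 70 genes its log2 difference from the mean of the other fasting libraries had a Spearman's rho of -0.866 with transcript length. The 24 shortest transcripts (805 to 2905 bases) were at a median of 0.37 above and the 23 longest (5020 to 12678 bases) at -0.67. The median log2 fold changes of the shortest, middle and longest genes were -1.39, -1.48 and -1.41. Without fasting replicate 3 they were -1.50, -1.46 and -1.20, and with the trend in length removed from every library -1.68, -1.40 and -1.07. All 70 genes passed when that library was left out, but so did nearly all of the 3511 listed genes (1747 as lower and 1762 as higher). Removing the trend moved the fold of 8 genes by over 1.5 times: CENPX to -1.45, and the long CENPE to -1.34, KNL1 to -1.39, KIF21B to -0.75, SMC1A to -0.48, CENPF to -1.11, ASPM to -1.41 and MKI67 to -2.09 on the log2 scale. The source of this trend was not tested.

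**Figure D4:**
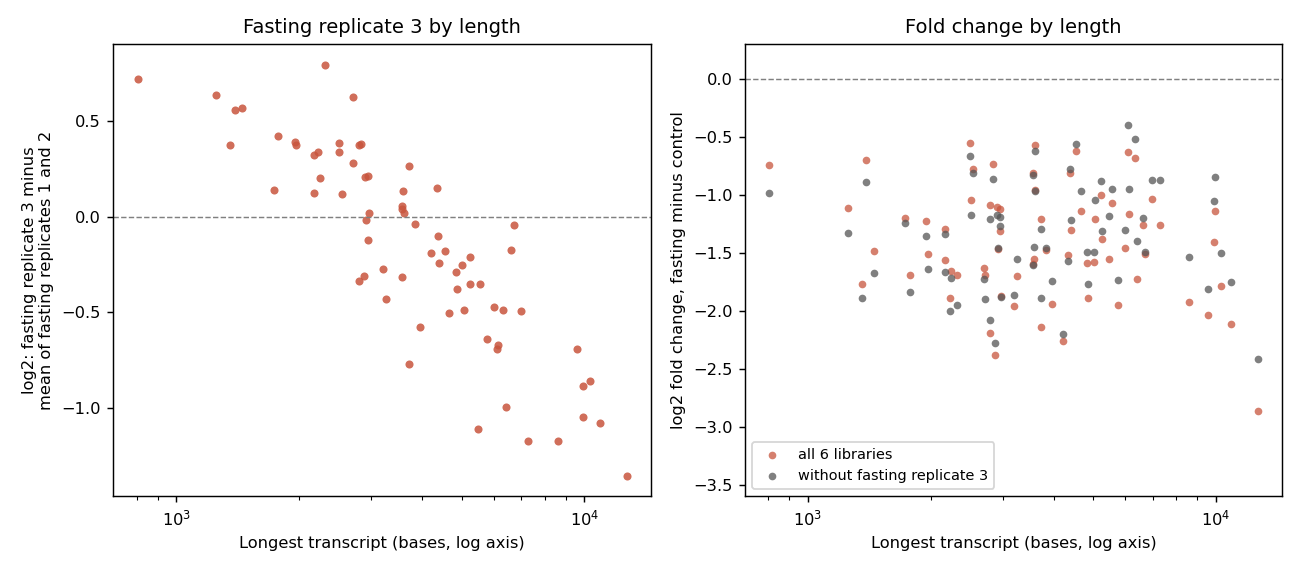
Left, log2 difference between fasting replicate 3 and the mean of fasting replicates 1 and 2 against the longest transcript (bases, log axis) for the 70 genes. Right, log2 fold change against the same length with all 6 libraries (red) and without fasting replicate 3 (grey). The left points descend with length (rho -0.866), and on the right every point stays under 0 in both colours.

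Further genes of mitosis outside the name pattern were read from 10 lists of 141 genes, 69 of them listed. Of the 69, 61 fell and 3 rose, and their median was -0.98, beside -1.46 for the 70 genes. The median was 0.53 over all listed genes and -0.92 over the listed genes that were lower. Of all listed genes 44.6% fell and 94.3% passed in either direction, and the counts per list below are read beside these shares. The 3 that rose were MIS12 (0.57), a kinetochore base protein, ANAPC16 (0.98), a subunit of the anaphase-promoting complex, and the tubulin TUBB2A (0.67), and none of the 3 passed as higher when libraries were scaled to their total reads. MIS12 had 356, 342 and 318 in control and 484, 536 and 496 in fasting medium (limma, adjusted p 0.00514). ANAPC16 had 303, 273 and 273 in control and 451, 584 and 659 in fasting medium (0.00324). All fasting values exceeded all control values for both, as groups did not overlap for any listed gene.

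Of 21 kinetochore and checkpoint partners 15 were listed and 14 fell, with the smallest adjusted p for SGO2 (-1.94), the shugoshin that guards centromeric cohesin, and TRIP13 (-1.56), the ATPase that disassembles checkpoint complexes. The cohesin list had 2 of 12 listed, ESCO2 (-1.30) and PDS5B (-0.72), and both fell. In the anaphase-promoting complex list 6 of 19 were listed and 4 fell, with the smallest adjusted p for its inhibitor FBXO5 (-1.56) and its subunit CDC27 (-1.03). Spindle and microtubule regulators had 18 of 28 listed and 16 fell, with the smallest adjusted p for TACC3 (-1.87) and GTSE1 (-1.86), and centrosome duplication had 5 of 9 listed and 4 fell, with the smallest for SASS6 (-1.03) and CEP152 (-1.01). Mitotic entry regulators had 6 of 13 listed, and all 6 fell, with the smallest adjusted p for the kinases MELK (-1.29) and PBK (-1.62). Cytokinesis partners had 5 of 10 listed, all lower, with the smallest adjusted p for CEP55 (-1.43) and RACGAP1 (-0.97), the partner of KIF23.

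FOXM1 and MYBL2, regulators known to drive transcription of these genes, were lower too. FOXM1, the forkhead factor of G2 and M genes, had 1676, 1616 and 1592 in control and 642, 583 and 462 in fasting medium (-1.54, SE 0.126, limma, adjusted p 0.000204). MYBL2 (B-MYB), which binds CHR promoters with the MuvB core, went from 1275, 1326 and 1326 to 394, 348 and 484 (-1.69, SE 0.126, adjusted p 0.000138). In this list, which is not limited to activators, 5 of 13 genes were listed and all 5 fell, including RBL1 (-1.16), TFDP1 (-0.86) and LIN9 (-0.75). Whether these regulators had a part in the falls was not tested. Nuclear lamina and envelope genes had 3 of 6 listed, all lower, with TMPO (-1.29) and LMNB2 (-1.09) leading, beside -2.38 for LMNB1. Of 4 listed tubulins TUBA1B (-1.02) and TUBB4B (-1.03) fell. The genes of these lists that did not pass were ANAPC1, CLASP2, CKAP5, PCNT and TUBB, with adjusted p from 0.0576 to 0.12.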

How the data were processed

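One deposited table served all 6 libraries. Per the labels' protocols, total RNA was made into strand-specific libraries. DESeq 1.10.1, HTSeq 0.6.1 and UMI-tools 1.0.0 appear in the submitters' processing notes without their roles. Which aligner, annotation and genome build the authors used is not given in the sources used here. Its deposited sample columns hold a signal without a named unit. From the values, it is a normalized read count: reads divided by 1 size factor per library, since 100% of values in each library were whole multiples of 1 read (within 0.01 read). Size factors were 1.01, 1.41 and 1.38 for control and 0.788, 0.956 and 0.727 for fasting replicates 1 to 3. The authors' deposited p-values and log2 fold changes, with adjusted p-values, stand in the same table and were used here only to count the genes tested. The highest adjusted p was 0.04999.

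Normalized counts were tested on the log2(value + 1) scale with limma 3.58.1 in R 4.3.3 (moderated, with a mean-variance trend), leaving out listed genes whose mean was under 1 in both groups, a filter that all 70 genes passed. The p-values were adjusted by Benjamini and Hochberg's method over the 29845 genes the authors tested (threshold 0.05, two-sided). Fold changes on this scale understate the change of low genes. On the recovered reads edgeR 4.0.16 called 1609 listed genes lower and 1752 higher, and 68 of the 70 lower. Transcript lengths and overlaps came from GENCODE 29 by Ensembl identifier. The members, role groups and lists were chosen with earlier results of these data known. Every member may be named: values in every library were given for a set of core genes, for the largest and smallest change of each role group and for each member that did not pass. From each further list the 2 genes with the smallest adjusted p and any that moved the other way were named. Replicate numbers are shared by the groups, but libraries with the same number did not deviate together (Pearson's r 0.0315, 0.0265 and 0.0772 over 2897 genes), so they were not paired.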

Additional observations from a re-analysis of the deposited data

How the results depend on the processing

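The direction of all 70 genes held in each of the 21 alternatives that gave a value per gene (0 reversed), and 51 genes were called lower in every one. The count of genes called lower ran from 52 (limma without moderation) to 70 (scaling to total reads, DESeq2 1.42.0 on the recovered reads, adjustment over the listed genes alone). In the same order, the settings that gave 70 called 1708, 1731 and 1747 of all listed genes lower and 862, 1751 and 1764 higher. Adjustment over the listed genes alone thus called every listed gene that was lower, so its count is not particular to the 70. Leaving out 1 library gave 62 to 70 of the 70 genes, while over all listed genes it gave 1160 to 1747 called lower. With a replicate block the count was 68, with CENPH lost (adjusted p 0.0553), CENPX gained (0.0158) and no other call among the 70 changed. Scaling shifted all listed genes together. By the change in size factors, the log2 difference between media moved by -0.48 with total-read scaling and by 0.20 with RLE scaling. Both sets of factors came from the listed genes alone, and RLE scaling cut the listed genes called lower from 1567 to 1174. With total-read scaling the median log2 fold change was -1.94 over the 70 genes, -1.86 for condensin and chromosome genes, -2.06 for mitotic kinesins, -1.99 for mitotic entry, -1.89 for checkpoint and anaphase, -2.35 for spindle-associated proteins, -2.08 for the outer kinetochore, -2.17 for the passenger complex, -1.29 for inner centromere proteins and -1.27 for other kinesins, and 0 further mitosis genes were called higher. With RLE scaling, in the same order but without the passenger complex, the medians were -1.27, -1.18, -1.40, -1.32, -1.21, -1.68, -1.40, -0.62 and -0.60. With the length trend removed from each library they were -1.35 over the 70 genes, -1.09 (condensin), -1.36 (mitotic kinesins), -1.67 (entry), -1.35 (checkpoint), -1.41 (spindle-associated), -1.48 (outer kinetochore) and -1.45 (inner centromere). With that trend removed only from fasting replicate 3, an alternative chosen after seeing the data, they were -1.38 over the 70 genes and -0.91 for inner centromere proteins. Leaving out 1 library moved the median between -1.47 and -1.35 for the 70 genes, -1.47 and -1.38 for checkpoint and anaphase, -1.98 and -1.76 for spindle-associated proteins, -1.61 and -1.44 for the outer kinetochore, and -0.98 and -0.80 for inner centromere proteins. Without moderation 16 of the 70 genes lost their call. Among the other kinesins KIF21B, KIF24 and KIF3A were lost and 4 were still called lower. The rest were ASPM, CENPE, CENPF, KIF20B, SPC24, SMC4, KIF14, SMC1A, AURKB, KNTC1, CENPB, CENPH and CCNB2. Over all listed genes 847 fell and 1134 rose without moderation, against 1567 and 1745 with it. Moderation without a mean-variance trend lost KIF14, CENPH and KIF3A (65 called), and removing the length trend lost KIF3A and gained CENPX (68 called). The causes of these shifts were not tested. Depth limits KIF21B most, which had 11 reads in fasting replicate 3.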
